A study of Homo sapiens with 8 samples.

Results

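Aminoacyl-tRNA synthetases are the enzymes that load each transfer RNA with its amino acid, and the 39 genes described here encode the cytosolic enzymes, the mitochondrial enzymes and the 3 scaffold proteins that hold a group of the cytosolic ones together. Members were chosen by gene symbol, from 38551 genes in the count table. The rule used no measured value, but it was set with earlier results of these data known. Of these, 20 encode cytosolic enzymes, 3 encode scaffold proteins and 16 encode mitochondrial enzymes. RNA-sequencing counts came from MOLM-13 cells, an established line of human acute myeloid leukemia that carries a KMT2A rearrangement. In 4 libraries the cells had received 100 nM PR-957 (ONX-0914), an inhibitor of the immunoproteasome, and in the other 4 they had received its diluent DMSO, each for 72 h. All libraries came from this single line, and nothing in the labels gives separate cultures, so the spread between replicates may be technical. Fewer cells expressing a gene and less RNA per cell cannot be told apart in such bulk libraries.

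Protein synthesis needs a charged tRNA for every codon. The cytosol and the mitochondrion translate separately, and for most amino acids each compartment has its own synthetase, encoded by a separate nuclear gene whose symbol ends in 1 for the cytosol and in 2 for the mitochondrion. GARS1 and KARS1 are exceptions, since each gene encodes the enzyme of both compartments. Synthetases fall into class I and class II, which differ in the fold of the catalytic domain, and in animal cells several cytosolic synthetases join the scaffold proteins AIMP1, AIMP2 and EEF1E1 in the multisynthetase complex. Many cytosolic synthetase genes are known targets of ATF4, the transcription factor of the integrated stress response, which binds C/EBP-ATF response elements.

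Library totals ran from 16675036 to 23111223 counts, and the deepest library was DMSO replicate 4. On the second principal component of log2 CPM (13.5% of variance, against 59.5% on the first, which separates the groups), replicates 1 and 2 lay on one side and replicates 3 and 4 on the other in both groups. The labels name no batch for this. On this depth 3 counts, the limit that a count of 0 allows, corresponded to 0.13 to 0.18 CPM (counts scaled to a common library size), a limit that covers counting error only. Of 10 myeloid leukemia markers, 9 had at least 1 CPM in DMSO, and CD14, a monocyte marker, had 0.125 CPM. Their summed level was 1625 to 1701 CPM in DMSO and 2325 to 2574 CPM in PR-957, with LYZ and MPO, granule proteins of myeloid cells, at 153 and 175 CPM in DMSO and 820 and 506 CPM in PR-957. The myeloid markers did not all go up. Mean FLT3 went down from 340 to 173 CPM under the inhibitor, and PTPRC from 207 to 131 CPM. CEBPA (564 to 555 CPM) and CD33 (37.5 to 38.6 CPM) hardly moved, while SPI1, ITGAM, CSF1R and CD14 had higher means. Of 9 markers of other cell types, 7 stayed under 1 CPM in both groups, the T cell marker CD3E among them with 0 counts in all libraries. The summed level of these 9 was 44.1 to 64.8 CPM in DMSO and 84.2 to 87.3 CPM in PR-957, most of it from PECAM1, an adhesion molecule that myeloid cells also carry. The part of these marker changes in the results below was not tested.

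Most cytosolic synthetase transcripts were lower after PR-957. Of 20 cytosolic enzymes, all of which were tested, 14 fell, 3 rose and 3 did not pass the test (edgeR quasi-likelihood test, adjusted p under 0.05 over all genes tested). Of the 13179 genes tested, 46.6% were called in either direction, with 23.5% lower and 23.1% higher, against 70% and 15% of the cytosolic enzymes. A fall of at least 1.5-fold was found in 11 of the 20, against 7% of all genes tested, and a fall of at least 2-fold in 4, against 2.39%. None rose by 1.5-fold or more, where 6.8% of all genes tested did. The median log2 fold change of the cytosolic enzymes was -0.62, beside 0.003 over all genes tested, and single values ran from -1.79 for WARS1 to 0.44 for RARS1. The 4 DMSO and 4 PR-957 libraries did not overlap for 16 of the 20, whereas 42.5% of all genes tested showed no overlap.

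The mitochondrial enzymes did not move together. Of 16 genes, 15 could be tested, of which 4 fell, 3 rose and 8 did not pass the test. The shares of 26.7% lower and 20% higher stood near those of all genes tested, and none changed by 1.5-fold. With libraries scaled by their totals alone, 1 fell and 5 rose. Their median log2 fold change was 0.04, with a range from -0.42 for PARS2 to 0.41 for LARS2. No overlap between groups was found for 6 of the 15, near the share of 42.5% among all genes tested. Among the 3 scaffold genes, 2 fell, where 23.5% of all genes tested did, and AIMP2 did not pass the test.

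**Figure D1:**
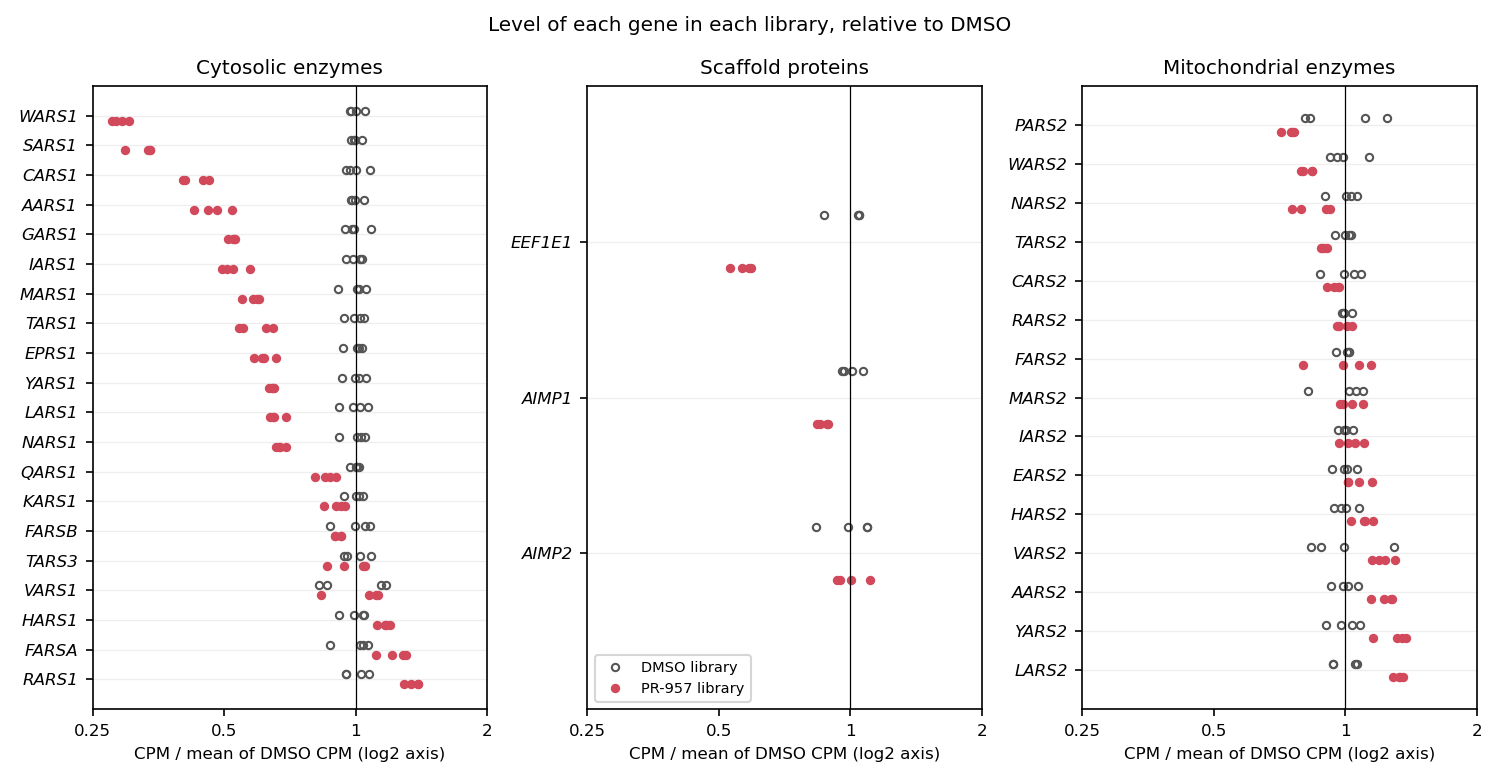
Level of each tested gene in each library, as CPM divided by the mean CPM of the 4 DMSO libraries (log2 axis), with open circles for DMSO and filled circles for PR-957. For cytosolic genes from WARS1 to NARS1 all PR-957 libraries lie left of all DMSO libraries, while the mitochondrial genes stay close to 1 on either side.

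The largest fall was that of WARS1, which encodes tryptophanyl-tRNA synthetase and lies at chr14:100333789-100376327 of hg38. Its level was 431, 442, 463 and 429 CPM in DMSO replicates 1 to 4 and 129, 134, 125 and 122 CPM in PR-957 replicates 1 to 4. The groups were far apart, and the log2 fold change of -1.79 (SE 0.05, edgeR adjusted p = 4.98e-15) was the 86th lowest of the 13179 genes tested. SARS1 at chr1:109213893-109238182, the seryl-tRNA synthetase, had 216, 208, 207 and 204 CPM in DMSO. In PR-957 it had 61.8, 70.8, 69.8 and 70.7 CPM, with replicate 1 below the other three, and its log2 fold change was -1.61 (SE 0.06, edgeR adjusted p = 3.85e-14). CARS1 at chr11:3000929-3057427 encodes cysteinyl-tRNA synthetase and was measured at 25.1, 24.3, 27.1 and 23.8 CPM in DMSO. Under PR-957 it stood at 10.2, 11.2, 11.6 and 10.1 CPM, a log2 fold change of -1.21 (SE 0.09, edgeR adjusted p = 1.43e-09). The gene models place CARS1 a further time on another sequence of the assembly, so that its level may be undercounted, while the change rests on the fragments counted. AARS1 at chr16:70252295-70289509, the alanyl-tRNA synthetase, was at 530, 557, 523 and 520 CPM in DMSO and at 256, 278, 244 and 227 CPM in PR-957. The groups did not overlap, with a log2 fold change of -1.08 (SE 0.06, edgeR adjusted p = 5.02e-11).

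A second tier of enzymes fell by 1.69 to 1.91-fold. GARS1 at chr7:30594735-30634033, the glycyl-tRNA synthetase of both compartments, had 396, 401, 438 and 383 CPM in DMSO against 212, 207, 213 and 214 CPM in PR-957, and its log2 fold change was -0.94 (SE 0.05, edgeR adjusted p = 7.58e-11). The PR-957 libraries lay closer to each other (SD 3.4 CPM) than the DMSO libraries (SD 23.5 CPM). IARS1 at chr9:92210207-92293756, the isoleucyl-tRNA synthetase of the complex, had 421, 436, 441 and 405 CPM in DMSO and 223, 244, 216 and 211 CPM in PR-957. Its log2 fold change of -0.93 (SE 0.06, edgeR adjusted p = 1.89e-10) came with groups that did not overlap. MARS1 at chr12:57488068-57516655, the methionyl-tRNA synthetase of the complex, stood at 527, 553, 534 and 478 CPM in DMSO and at 315, 311, 304 and 288 CPM in PR-957. The log2 fold change was -0.78 (SE 0.06, edgeR adjusted p = 2.08e-09), and DMSO replicate 4 was the lowest control. TARS1 at chr5:33440696-33468091, the threonyl-tRNA synthetase, was measured at 540, 554, 524 and 497 CPM in DMSO and at 330, 342, 292 and 286 CPM in PR-957. All PR-957 libraries were below all controls, with a log2 fold change of -0.76 (SE 0.06, edgeR adjusted p = 1.23e-08).

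The remaining decreases were smaller. EPRS1, a fused enzyme that charges both glutamate and proline tRNAs, fell by 0.69 on the log2 scale, YARS1 for tyrosine by 0.63, LARS1 for leucine by 0.61 and NARS1 for asparagine by 0.57, each without overlap between groups. The decrease of QARS1, which charges glutamine tRNA, was 0.22 on this scale (SE 0.05, edgeR adjusted p = 0.00193). KARS1 at chr16:75627724-75647687 encodes lysyl-tRNA synthetase for both compartments and stood at 251, 246, 256 and 231 CPM in DMSO and at 233, 228, 222 and 208 CPM in PR-957. Its groups overlapped, and the log2 fold change of -0.14 (SE 0.05, edgeR adjusted p = 0.0408) was barely past the threshold. The call was lost in 10 of 16 alternative analyses, over which the adjusted p ran from 0.00742 to 0.292. Among these, it was 0.0898, 0.0747 and 0.11 without DMSO replicate 1, 2 or 3, and 0.0514, 0.0916 and 0.111 without PR-957 replicate 2, 3 or 4. GARS1 and KARS1, the 2 genes that serve both compartments, thus had log2 fold changes of -0.94 and -0.14.

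Against this direction, 3 cytosolic enzymes rose. RARS1, the arginyl-tRNA synthetase of the complex, was at 85.5, 81.9, 75.8 and 75.9 CPM in DMSO and at 111, 111, 107 and 103 CPM in PR-957, a log2 fold change of 0.44 (SE 0.06, edgeR adjusted p = 4.19e-06). Every PR-957 library exceeded every control. FARSA, the catalytic subunit of phenylalanyl-tRNA synthetase, had 281, 274, 270 and 230 CPM in DMSO and 338, 344, 320 and 294 CPM in PR-957, a log2 fold change of 0.30 (SE 0.07, edgeR adjusted p = 0.00108). The other subunit of the same enzyme, FARSB, was at 118, 112, 121 and 98.2 CPM in DMSO and at 104, 101, 101 and 104 CPM in PR-957. It did not pass the test (log2 fold change -0.13, SE 0.06, edgeR adjusted p = 0.0963), although without DMSO replicate 4, the lowest control, its value was -0.19 with an adjusted p of 0.00372. Within each library, counts of FARSA exceeded those of FARSB by 2.23 to 2.45 times in DMSO and by 2.82 to 3.42 times in PR-957, and this ratio of the subunits was higher in all PR-957 libraries (log2 difference 0.43, SE 0.07, two-sided exact permutation p = 0.0286, adjusted p = 0.0374 over 17 ratios). HARS1 at chr5:140673904-140691727, the histidyl-tRNA synthetase, was at 74, 70.4, 73.8 and 65 CPM in DMSO and at 84.7, 79.3, 82.9 and 83.1 CPM in PR-957, with a log2 fold change of 0.22 (SE 0.06, edgeR adjusted p = 0.00373). Its groups did not overlap.

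VARS1 and TARS3 gave little to measure. VARS1 at chr6:31777518-31795928, the valyl-tRNA synthetase, was listed at 1.5, 2, 2.05 and 1.44 CPM in DMSO and at 1.95, 1.88, 1.46 and 1.97 CPM in PR-957 (log2 fold change 0.05, SE 0.24, edgeR adjusted p = 0.872). The gene models place it 6 further times on other sequences of the assembly, so its true level is unknown rather than low. TARS3 at chr15:101653596-101724473, a second threonyl-tRNA synthetase gene, had 7.14, 7.02, 8.09 and 7.64 CPM in DMSO and 7.85, 6.42, 7.03 and 7.76 CPM in PR-957. The groups overlapped (log2 fold change -0.04, SE 0.12, edgeR adjusted p = 0.804), unlike those of TARS1.

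**Figure D2:**
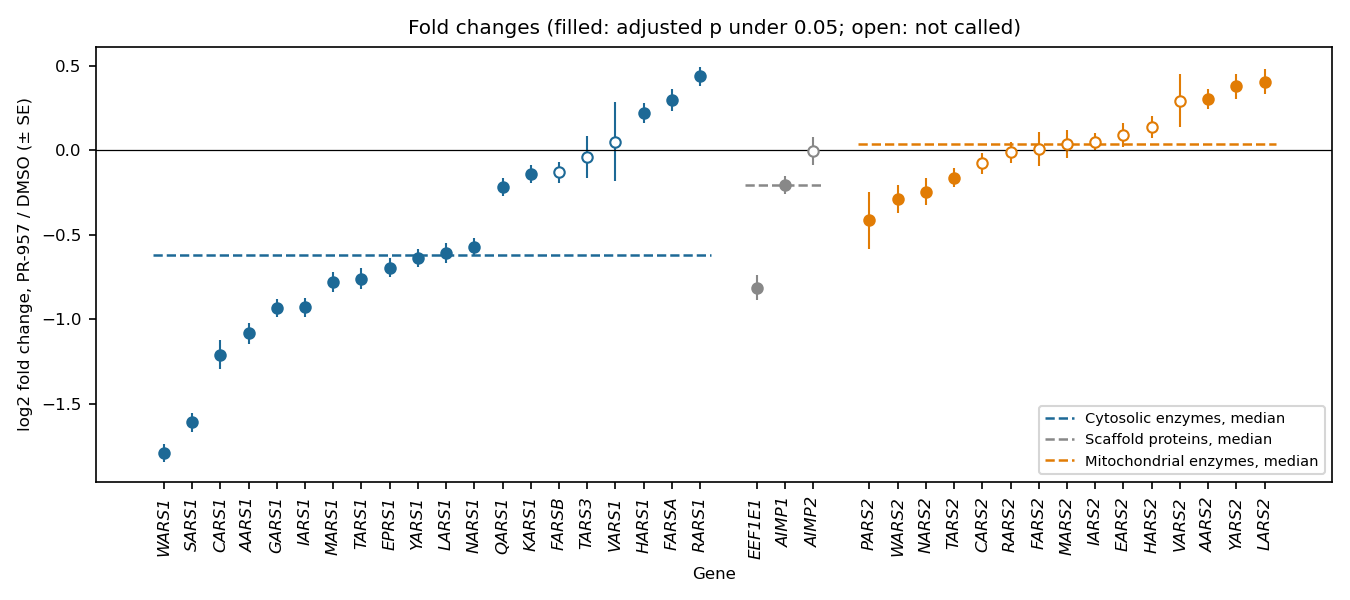
Log2 fold change of PR-957 over DMSO with its standard error for each of the 38 tested genes, in order of size within cytosolic enzymes, scaffold proteins and mitochondrial enzymes, with filled points for an adjusted p under 0.05 and dashed lines for the median of each set. The cytosolic median is -0.62 and the mitochondrial median 0.04.

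Decreases were found inside and outside the multisynthetase complex. Of the 7 enzymes of the complex, 6 fell and RARS1 rose, with a median log2 fold change of -0.61. Of the 13 other cytosolic enzymes, 8 fell and 2 rose, with a median of -0.63. All 4 genes that fell at least 2-fold were outside the complex. By catalytic class, 7 of 9 class I enzymes fell (median -0.63) and 6 of 10 class II enzymes fell (median -0.36), where EPRS1 holds a domain of each class and was left out. Over all genes tested 23.5% fell and 23.1% rose, with a median of 0.003.

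The scaffold genes differed from each other. EEF1E1 at chr6:8073360-8102548, also known as AIMP3, had 53.9, 54, 54 and 45 CPM in DMSO and 30.3, 30.6, 29.2 and 27.4 CPM in PR-957. Its log2 fold change was -0.81 (SE 0.07, edgeR adjusted p = 2.87e-08), with DMSO replicate 4 below the other controls and yet above all PR-957 libraries. On the same strand, 34.3% of its exon bases also belong to the read-through gene EEF1E1-BLOC1S5, where a fragment is by default assigned to neither gene, so its level is uncertain. AIMP1 at chr4:106315610-106349456 was at 144, 130, 129 and 136 CPM in DMSO and at 120, 115, 119 and 113 CPM in PR-957. The groups did not overlap (log2 fold change -0.21, SE 0.05, edgeR adjusted p = 0.0041), although with replicates 3 and 4 alone the adjusted p was 0.0594. AIMP2 at chr7:6009245-6023834 was at 99.3, 89.9, 99.5 and 75.9 CPM in DMSO and at 101, 86.1, 91.5 and 85 CPM in PR-957, with overlapping groups (log2 fold change -0.00, SE 0.08, edgeR adjusted p = 0.979). Of its exon bases, 23.6% lie opposite those of EIF2AK1, which the stranded counting separates.

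The promoters of the members were searched for the core of the C/EBP-ATF response element, TGATGNAA, on either strand, in windows from 250 bases before to 50 bases after the transcription start (RefSeq, GRCh38.p14). An entry was found for 33 of the 39 members, and LARS1, YARS1, TARS3, AARS2, VARS1 and VARS2 had none. Of the 16 cytosolic enzymes with an entry, 7 held the core (43.8%), compared with 1 of 14 mitochondrial enzymes (7.14%), 0 of 3 scaffold genes, 2.77% of 9912 tested genes and 4.46% of all 27305 genes of the table. The sequences are shown because they carry this difference between the compartments. Each is 30 bases, read 5′ to 3′ on the strand of its gene, with the core in capitals. Distances run from the start that the promoter table uses to the first base of the core. A core given as 2 or 4 bases before the start therefore spans it. For some genes that start is not the outermost start of the gene models used for counting. From that outermost start, the core lay 271 bases downstream for TARS1, 110 for GARS1, 46 for IARS1, 2 for CARS1 and 364 for YARS2. These cores lie inside the gene bounds given for these genes.
TARS1, chr5:33440956-33440985, core 2 bases after the start: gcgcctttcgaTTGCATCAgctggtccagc
GARS1, chr7:30594834-30594863, core 33 bases before the start: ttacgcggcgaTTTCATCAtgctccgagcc
IARS1, chr9:92293692-92293721, core 13 bases before the start: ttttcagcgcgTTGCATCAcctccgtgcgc
CARS1, chr11:3057407-3057436, core 2 bases before the start: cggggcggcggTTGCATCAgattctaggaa
MARS1, chr12:57488053-57488082, core 4 bases before the start: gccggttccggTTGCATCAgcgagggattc
AARS1, chr16:70289675-70289704, core 187 bases before the start: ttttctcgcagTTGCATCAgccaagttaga
NARS1, chr18:57621804-57621833, core 14 bases after the start: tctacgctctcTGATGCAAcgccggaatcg
YARS2, chr12:32756076-32756105, core 197 bases before the start: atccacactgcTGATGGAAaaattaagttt

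TARS1, IARS1, CARS1, MARS1 and AARS1 shared the same 8 letters in the same orientation, TTGCATCA, and NARS1 held their reverse complement. GARS1 and the mitochondrial YARS2 each held a variant at the free position. All 7 cytosolic enzymes with the core fell, with a median log2 fold change of -0.93, while of the 9 with an entry and without the core 5 fell, with a median of -0.14. WARS1 and SARS1, which fell most, were among those 9. YARS2 rose. Across the 9912 tested genes with an entry, the core stood in 4.31% of the genes that fell, 2.16% of those that rose and 2.36% of those not called. Of the 275 tested genes with the core, 36.7% fell, with a median log2 fold change of -0.13. Of the 9637 without it, 23.3% fell, with a median of 0.007. A match is a description of the letters in this window and was not measured as a binding site.

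For the mitochondrial enzymes, changes were small in both directions. LARS2 at chr3:45388564-45549407, the mitochondrial leucyl-tRNA synthetase, was at 22.7, 22.7, 25.7 and 25.5 CPM in DMSO and at 32, 32.8, 32.3 and 31 CPM in PR-957, a log2 fold change of 0.41 (SE 0.07, edgeR adjusted p = 0.000121). YARS2 at chr12:32725247-32756458, for tyrosine, had 34.8, 31.5, 33.3 and 29 CPM in DMSO and 42.3, 37.2, 43.3 and 44.3 CPM in PR-957, a log2 fold change of 0.38 (SE 0.07, edgeR adjusted p = 0.000344). Neither gene showed overlap between groups. AARS2 at chr6:44297850-44313358, for alanine, was measured at 67.4, 71, 65.5 and 61.6 CPM in DMSO and at 76.2, 81.5, 84.8 and 84.7 CPM in PR-957. It rose by 0.30 on the log2 scale (SE 0.06, edgeR adjusted p = 0.000383), again without overlap. These 3 increases passed the test in each of the 16 alternative analyses.

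The 4 decreases of mitochondrial enzymes were less stable. WARS2 at chr1:119031216-119140788, for tryptophan, stood at 21.5, 20.8, 24.6 and 20.1 CPM in DMSO and at 18.3, 17.4, 17.2 and 18.3 CPM in PR-957, a log2 fold change of -0.29 (SE 0.08, edgeR adjusted p = 0.00833). Its groups did not overlap, but the adjusted p was 0.0689 with replicates 1 and 2 alone and 0.057 with replicates 3 and 4 alone. PARS2 at chr1:54756898-54764523, for proline, had 7.08, 6.29, 4.71 and 4.59 CPM in DMSO and 4.29, 4.33, 4.25 and 4.05 CPM in PR-957. DMSO replicates 1 and 2 lay well above replicates 3 and 4, and the log2 fold change was -0.42 (SE 0.17, edgeR adjusted p = 0.0477). That call was lost in 10 of 16 alternatives, with an adjusted p of 0.177 or 0.122 without DMSO replicate 1 or 2, of 0.0759, 0.0703, 0.0879 and 0.0893 without PR-957 replicates 1 to 4 in turn, and of 0.594 with replicates 3 and 4 alone. NARS2, for asparagine, had a log2 fold change of -0.24 (edgeR adjusted p = 0.0146), with an adjusted p of 0.0513, 0.0577 and 0.0519 without DMSO replicate 2, PR-957 replicate 3 and PR-957 replicate 4. Its edgeR adjusted p was 0.0651 with replicates 1 and 2 alone and 0.0718 with library totals alone. For TARS2, the threonine enzyme, the log2 fold change was -0.16 (edgeR adjusted p = 0.0223), with an adjusted p of 0.0599 and 0.0532 without DMSO replicates 1 and 3. The edgeR adjusted p of TARS2 was 0.23 with replicates 3 and 4 alone and 0.218 with library totals alone.

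Of the others, VARS2 at chr6:30914208-30926459, for valine, was at 6.2, 4.01, 4.77 and 4.24 CPM in DMSO and at 5.74, 5.53, 5.94 and 6.24 CPM in PR-957 (log2 fold change 0.29, SE 0.16, edgeR adjusted p = 0.135). DMSO replicate 1 was as high as the PR-957 libraries, and without it the value was 0.43 with an adjusted p of 0.0338. The gene models place VARS2 5 further times, so its level too is unknown. HARS2 at chr5:140691444-140699308, for histidine, had 42.5, 38.5, 39.6 and 37.2 CPM in DMSO and 40.7, 45.8, 43.5 and 43.9 CPM in PR-957 (log2 fold change 0.14, SE 0.07, edgeR adjusted p = 0.0825), and 0.18 with an adjusted p of 0.0485 without DMSO replicate 1. HARS2 and HARS1 start head to head on opposite strands and share 9.85% and 12.3% of their exon bases, which only the strand of a fragment tells apart. The values of EARS2 for glutamate (0.09), IARS2 for isoleucine (0.05), MARS2 for methionine (0.04), FARS2 for phenylalanine (0.01), RARS2 for arginine (-0.01) and CARS2 for cysteine (-0.08) did not pass the test on the log2 scale. CARS2 had -0.14 with an adjusted p of 0.0346 without DMSO replicate 4, and IARS2 had 0.13 with an adjusted p of 0.041 when libraries were scaled by their totals alone. SARS2, for serine, had 0 counts in all 8 libraries and was not tested. Its exons are placed a second time on another sequence of the assembly, so that a count of 0 says nothing of its level.

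The cytosolic and the mitochondrial gene for the same amino acid were next compared within each library, as the ratio of their counts, which does not depend on how libraries are scaled. The members gave 16 such pairs for 15 amino acids. In 10 pairs the ratio was lower in every PR-957 library than in every DMSO library, in 2 it was higher in every one, and in 4 the groups overlapped. Among single genes 42.5% showed no overlap between groups, and the share over other ratios was not computed. For the 12 pairs without overlap the two-sided exact permutation p was 0.0286, the smallest that 4 against 4 libraries allow, and the adjusted p over 17 ratios was 0.0374.

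WARS1 counts exceeded WARS2 counts 20, 21.2, 18.8 and 21.4 times in DMSO and 7.01, 7.7, 7.29 and 6.66 times in PR-957, a difference of -1.51 in log2 ratio (SE 0.06). Both genes of this pair fell, WARS1 by more. For AARS1 over AARS2 the ratio was 7.86, 7.83, 7.98 and 8.44 in DMSO and 3.35, 3.41, 2.88 and 2.68 in PR-957, a difference of -1.39 (SE 0.09) to which a decrease of AARS1 and an increase of AARS2 both contributed. The same opposite movement was present for leucine (LARS1 over LARS2, difference -1.02, SE 0.09) and tyrosine (YARS1 over YARS2, difference -1.01, SE 0.07). The isoleucine pair went from 2, 2.17, 2.16 and 2.08 in DMSO to 1.09, 1.09, 1.01 and 1.07 in PR-957, so that the counts of the 2 genes became nearly equal (difference -0.98, SE 0.04).

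The cysteine pair changed by -1.14 (SE 0.08), the methionine pair by -0.82 (SE 0.08), EPRS1 over EARS2 by -0.78 (SE 0.05), the threonine pair by -0.60 (SE 0.07) and the asparagine pair by -0.32 (SE 0.07). The 2 pairs with a higher ratio were RARS1 over RARS2, with 2.54, 2.3, 2.23 and 2.23 in DMSO and 3.11, 3.38, 3.08 and 3.11 in PR-957 (difference 0.45, SE 0.05), and FARSA over FARS2 (difference 0.31, SE 0.08). The latter difference was 0.16 with replicates 1 and 2 alone and 0.45 with replicates 3 and 4 alone, and for the other phenylalanyl subunit, FARSB, the ratio to FARS2 overlapped between groups. Groups overlapped for EPRS1 over PARS2 (difference -0.30, SE 0.14, exact permutation p = 0.0857), HARS1 over HARS2 (0.08, SE 0.06, exact permutation p = 0.2), FARSB over FARS2 (-0.12, SE 0.13, exact permutation p = 0.371) and VARS1 over VARS2 (-0.25, SE 0.25, exact permutation p = 0.4), where adjusted p-values were 0.104, 0.227, 0.395 and 0.4.

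**Figure D3:**
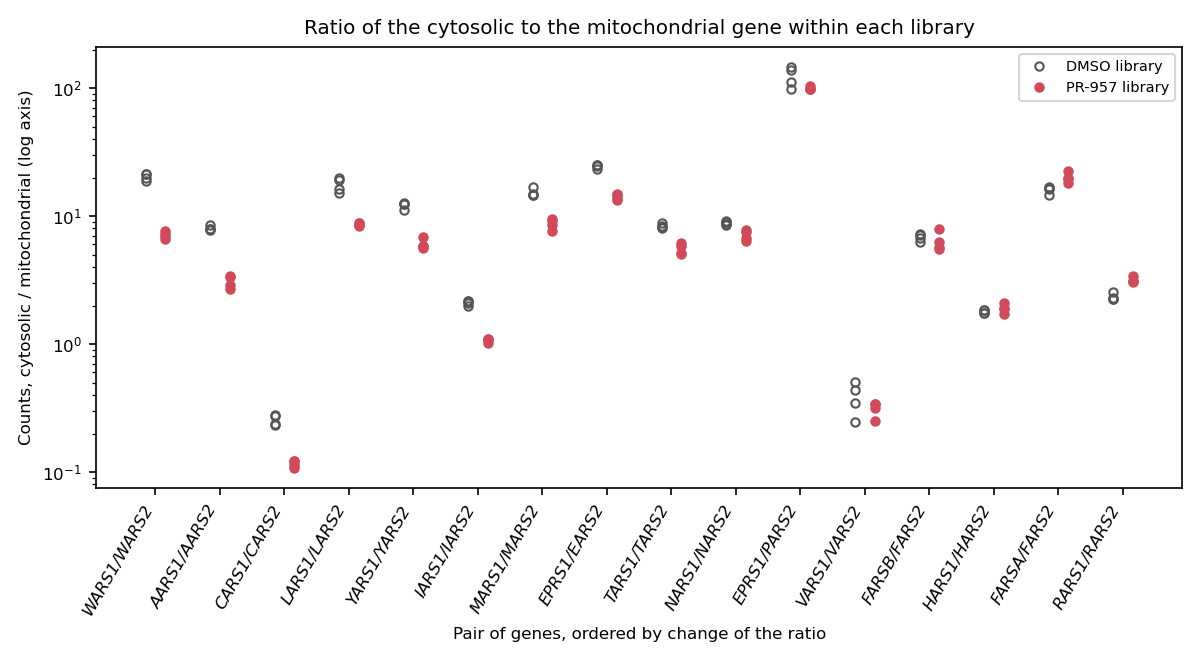
Counts of the cytosolic gene divided by counts of the mitochondrial gene for the same amino acid (log axis), in each DMSO library (open) and each PR-957 library (filled), for 16 pairs ordered by the change of the ratio. PR-957 libraries lie below DMSO libraries without overlap in 10 pairs and above them in 2.

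Levels per exon length, as FPKM (CPM divided by summed exon length in kilobases), were compared over the 35 members that the gene models place once. In DMSO the cytosolic enzymes had a median of 123 FPKM (n = 18 genes), the scaffold genes of 40.4 FPKM and the mitochondrial enzymes of 8.53 FPKM (n = 14 genes). MARS1 with 171 ± 10.4 FPKM (SD, n = 4) and TARS1 with 167 ± 7.62 FPKM stood first and did not differ beyond their spread, followed by AARS1 (155 ± 4.82), GARS1 (150 ± 8.74), FARSA (146 ± 12.6), WARS1 (141 ± 5.05) and EPRS1 (140 ± 6.29), whose neighbors in this order again lay within their spread. The highest mitochondrial enzyme was IARS2 with 57.4 ± 1.91 FPKM, above the cytosolic SARS1 (42.2 ± 1.08), RARS1 (37.6 ± 2.24), HARS1 (30.7 ± 1.84) and FARSB (12.2 ± 1.09). Summed exon length counts every annotated exon, 9202 bases for FARSB and 1811 for FARSA. Places and medians on this scale therefore depend on the gene models. Without division by length, SARS1 had a mean of 209 CPM in DMSO and IARS2 one of 203 CPM. The lowest of all was TARS3 with 1.05 ± 0.07 FPKM.

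In PR-957 the order was different. FARSA was first with 179 ± 12.3 FPKM, ahead of QARS1 with 107 ± 5 FPKM, which had been the 8th in DMSO. MARS1 (99.8 ± 3.99), TARS1 (98.7 ± 8.77) and KARS1 (96.7 ± 4.64) followed and did not differ beyond their spread. AARS1 went from place 3 to place 10 (73 ± 6.16 FPKM), WARS1 from 6 to 15 (40.9 ± 1.6 FPKM) and SARS1 from 16 to 24 (13.8 ± 0.875 FPKM), whereas RARS1 went from 18 to 13 (50.9 ± 1.79 FPKM). The median of the cytosolic enzymes was 75.8 FPKM and that of the mitochondrial enzymes 9.02 FPKM.

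**Figure D4:**
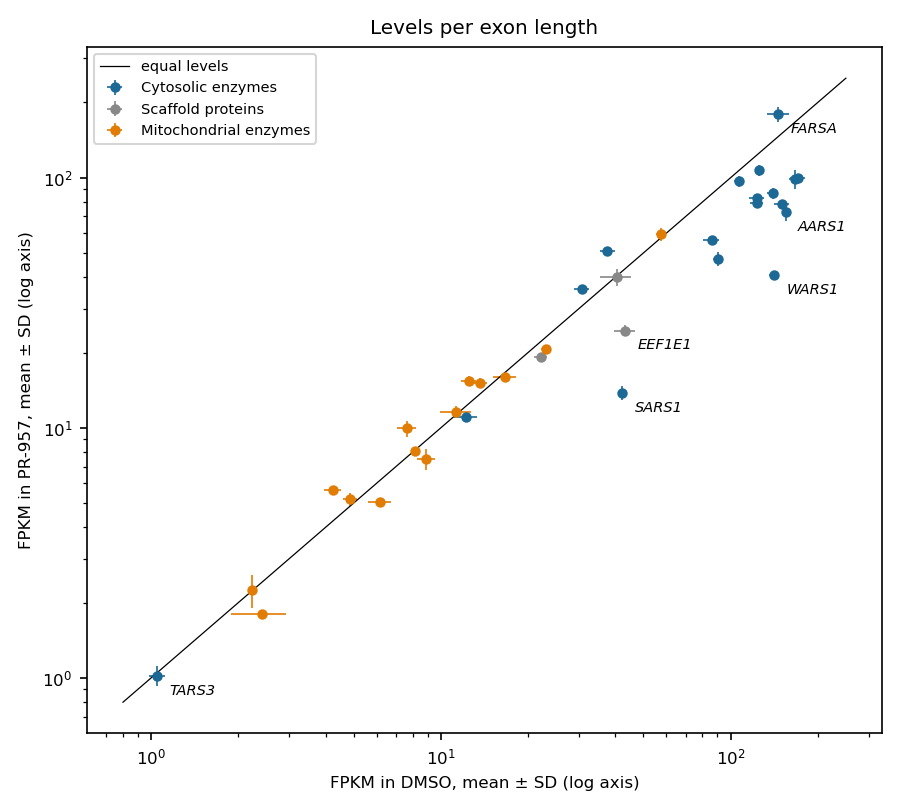
Mean FPKM with SD (n = 4 libraries) in DMSO and in PR-957 for the 35 members placed once by the gene models, on log axes, with a line of equal levels. Most cytosolic enzymes lie under the line, WARS1 and SARS1 farthest, and FARSA lies above it.

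As a share of all counts, the 20 cytosolic genes made up 0.581, 0.608, 0.589 and 0.559% of the DMSO libraries and 0.387, 0.406, 0.388 and 0.38% of the PR-957 libraries. The 16 mitochondrial genes made up 0.0706, 0.071, 0.069 and 0.0655% in DMSO and 0.073, 0.0764, 0.077 and 0.075% in PR-957. The share of the scaffold genes was 0.027% ± 0.00123 (SD, n = 4) in DMSO and 0.0243% ± 0.000836 in PR-957. The cytosolic share was lower in every PR-957 library than in every DMSO library, on this scale and as summed CPM after TMM scaling (5648 to 6183 in DMSO, 3628 to 3976 in PR-957). The mitochondrial share was higher in every PR-957 library, but its summed CPM after TMM scaling overlapped, with 737, 721, 720 and 661 in DMSO and 728, 748, 743 and 717 in PR-957, so that this difference depends on the scaling.

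Genes that work beside the synthetases were described from a list of 13, of which 12 were tested, with 3 lower (25%), 4 higher (33.3%) and a median log2 fold change of -0.03. Among all genes tested 23.5% fell and 23.1% rose, with a median of 0.003. XPOT, the exportin that carries tRNA out of the nucleus, was at 690, 724, 710 and 642 CPM in DMSO and at 390, 418, 390 and 375 CPM in PR-957, a log2 fold change of -0.82 (SE 0.06, edgeR adjusted p = 1.1e-09). It was the one gene of the list past 1.5-fold. SEPSECS, which completes selenocysteinyl-tRNA, was at 22.6, 22.7, 19.4 and 28.4 CPM in DMSO and at 17.7, 18, 18.4 and 21.7 CPM in PR-957 (log2 fold change -0.31, SE 0.10, edgeR adjusted p = 0.0227), but its adjusted p was 0.0875 without DMSO replicate 4 and 0.0732, 0.0597 and 0.061 without PR-957 replicate 1, 2 or 3. Its edgeR adjusted p was 0.259 with replicates 3 and 4 alone and 0.111 with library totals alone. DTD1, a deacylase that removes D-amino acids from tRNA, had a log2 fold change of -0.20 (edgeR adjusted p = 0.00844). The genes that rose were TSFM, MTFMT, TUFM and GATB. TSFM, the mitochondrial elongation factor Ts, was at 80.9, 84.6, 86 and 64.3 CPM in DMSO and at 105, 99.5, 101 and 84.6 CPM in PR-957, with PR-957 replicate 4 inside the range of the controls (log2 fold change 0.31, SE 0.09, edgeR adjusted p = 0.012). With replicates 3 and 4 alone the edgeR adjusted p of TSFM was 0.147. MTFMT, which formylates the initiator methionyl-tRNA, rose by 0.26 on the log2 scale, TUFM, the mitochondrial elongation factor Tu, by 0.24, and GATB, a subunit of the amidotransferase that makes mitochondrial glutaminyl-tRNA, by 0.23. Its partner subunits QRSL1 (-0.03) and GATC (-0.03) did not pass the test. The count of 4 higher genes was 2 without DMSO replicate 2, DMSO replicate 4, PR-957 replicate 1 or PR-957 replicate 3.

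The integrated stress response, which slows translation when charged tRNA is short or proteins misfold, was described from a list of 19 genes, of which 18 were tested. Of these, 13 fell (72.2%, against 23.5% of all genes tested) and 1 rose (5.56%, against 23.1%), which was EIF2AK1, the kinase HRI, with 0.19 on the log2 scale. The median was -1.34, beside 0.003 over all genes tested. CHAC1, a glutathione-degrading enzyme, was at 28.2, 29.7, 34 and 27.3 CPM in DMSO and at 2.12, 2.24, 3.01 and 2.76 CPM in PR-957, a log2 fold change of -3.55 (SE 0.12, edgeR adjusted p = 2.13e-14). NUPR1, a stress-induced chromatin protein, went from 3.26, 2.73, 4.77 and 6.47 CPM to 0.39, 0.365, 0.365 and 0.45 CPM, a log2 fold change of -3.45 (SE 0.31, edgeR adjusted p = 4.4e-08). For TRIB3, a pseudokinase, the values were 217, 204, 245 and 240 CPM in DMSO and 25.1, 26.8, 29.5 and 28.2 CPM in PR-957, a log2 fold change of -3.05 (SE 0.07, edgeR adjusted p = 1.85e-16). ATF4 itself, chosen after its value was seen, had a log2 fold change of -0.82 (SE 0.06, edgeR adjusted p = 1.42e-09), from 963 ± 62.7 to 545 ± 18.9 CPM (SD, n = 4). Of the 17 genes of this list with a promoter entry, 5 held the core of the response element (29.4%). The core stood in 2.77% of the 9912 tested genes with an entry and in 4.31% of those that fell. Among all 27305 genes with an entry the share was 4.46%.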

How the data were processed

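RNA was read from polyA-selected, stranded libraries of MOLM-13 cells. The authors trimmed reads with Trimmomatic 0.39, aligned them to hg38 with STAR 2.7.10a and, per the file headers, counted fragments on RefSeq gene models with featureCounts 2.0.1, reverse strand, both ends mapped. The deposited values were raw counts per gene. The header named 16 libraries, of which 8 were in the table and 8 were not analysed here. A deposited table of the authors' own comparison (mean counts, fold changes, p-values) was not used.

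Members were found by symbol (VARS1 by an older symbol). The members, lists and rules were chosen with earlier results of these data known. The 2 groups were compared with the two-sided quasi-likelihood test of edgeR 4.0.16 (R 4.3.3, limma 3.58.1), with TMM scaling, the filter filterByExpr, no covariate and Benjamini-Hochberg adjustment over 13179 genes, which held 99.9% of counts. SE is the absolute log2 fold change over the square root of F. CPM used TMM-scaled totals (mean ± SD, n = 4 per group), and FPKM divided CPM by summed exon length in units of 1000 bases. Fragments that map to several places were not counted. Ratios of counts (0.5 added to each) were compared by exact permutation over 70 splits, a test added after the data were seen.

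Full values were given for the 8 cytosolic and 6 mitochondrial enzymes with the largest absolute log2 fold change, the scaffold proteins, GARS1, KARS1, the paralogs of histidine, valine and threonine, and the 3 largest called changes of each partner list. Library values of RARS1, FARSA and FARSB, and any other partner gene, were added after values were seen. Alternatives were DESeq2 1.42.0, RLE scaling, library totals alone, no filter, a minimum of 1 CPM in 4 libraries, a replicate block, replicates 1 and 2 or 3 and 4 alone, and leaving out each library. Scripts were tested on simulated data. The lowest chi-square per gene between replicates was 3.32, so that no library was counted as a duplicate.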

Additional observations from a re-analysis of the deposited data

Results flagged for a closer look

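Of 76 groups of 4 libraries examined for a single library far from the others, 2 stood out by Dixon's test, where chance alone gives about 1 in 20. SARS1 was at 61.8 CPM in PR-957 replicate 1, below the 69.8 to 70.8 CPM of the other PR-957 libraries. EEF1E1 was at 45 CPM in DMSO replicate 4, below the 53.9 to 54 CPM of the other DMSO libraries. Both genes fell under PR-957 with and without these libraries.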

How the results depend on the processing

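Of the 20 cytosolic enzymes, the number that fell was 13 to 15 over the 16 alternatives and the number that rose was 3 in each. With scaling by library totals alone, which shifted the median of all genes by 0.078 and made 63.3% of all calls increases instead of 49.6%, the cytosolic median was -0.54 and the mitochondrial median 0.12, with 1 mitochondrial enzyme lower and 5 higher, and 1 charging partner lower. With replicates 1 and 2 only, 2 mitochondrial enzymes and 5 charging partners were lower. With replicates 3 and 4 only, 1 scaffold gene, 1 mitochondrial enzyme and 1 charging partner were lower, 2 charging partners were higher and 0 stress response genes were higher. These fits hold fewer libraries, and other causes were not tested.

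Leaving out 1 library at a time gave 2 to 5 lower and 3 to 5 higher mitochondrial enzymes, 2 to 4 higher and 2 to 4 lower charging partners, and a mitochondrial median from -0.0175 (without DMSO replicate 4) to 0.079. The lower mitochondrial count was 2 without DMSO replicate 1, DMSO replicate 2, PR-957 replicate 3 or PR-957 replicate 4, and the higher count was 5 without DMSO replicate 1. Values that were not called changed sign for VARS1 (-0.0429 to 0.148), TARS3 (-0.0863 to 0.0122), AIMP2 (-0.0856 to 0.0403), FARS2 (-0.0672 to 0.097), MARS2 (-0.0529 to 0.0842) and RARS2 (-0.0378 to 0.0049). They also did so for TARS3 (0.0359), AIMP2 (0.0761), CARS2 (0.0025) and RARS2 (0.066) with library totals alone, for TARS3 (0.0105) and MARS2 (-0.113) with replicates 1 and 2 only, and for VARS1 (-0.0227), AIMP2 (0.0108), CARS2 (0.0048) and FARS2 (-0.141) with replicates 3 and 4 only. No called member changed sign.

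Leaving out 1 library kept the sign of all 17 count ratios, with wide ranges for pairs that overlapped: 0.0376 to 0.126 for HARS1 over HARS2, -0.232 to -0.0585 for FARSB over FARS2, -0.441 to -0.0972 for VARS1 over VARS2 and -0.405 to -0.214 for EPRS1 over PARS2. With replicates 1 and 2 only and then 3 and 4 only, FARSB over FARS2 was -0.30 and 0.06, EPRS1 over PARS2 -0.06 and -0.54, VARS1 over VARS2 -0.04 and -0.46, AARS1 over AARS2 -1.22 and -1.56, LARS1 over LARS2 -1.16 and -0.87, and MARS1 over MARS2 -0.67 and -0.96. These alternatives were chosen after seeing the data.

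With the replicate block, 3400 genes fell and 3513 rose, and no call among the members changed. FARS2, not called, went to -0.0056. Same-numbered libraries deviated together with correlations of 0.151, 0.213, 0.0985 and 0.198, of which 1 was under 0.1. Differently numbered ones had correlations from -0.187 to 0.114. For each DMSO library the highest value was that with the PR-957 library of the same number. The main test and the ratio test did not pair the libraries, and these values do not settle whether they were paired.

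Depth limits VARS1, VARS2, PARS2 and TARS3, which had few counts. Members that the gene models place several times have unknown levels.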
